A study of Mus musculus with 4 samples.

Results

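The upper-layer cortex spots are 581 of the 9676 spots with at least 500 UMIs (unique molecular identifiers, the count of captured RNA molecules) in 4 coronal mouse brain sections, out of 10940 spots over tissue. They were chosen by 3 genes. The UMIs of Lamp5, Cux2 and Rasgrf2 in a spot were summed and divided by the total UMIs of the spot, and in each section the 6% of spots with the highest share were taken, provided that they held at least 2 UMIs of these genes. Sections trained 1, trained 2, untrained 1 and untrained 2 gave 156, 170, 109 and 146 such spots, called members here, and every list of 4 values in the text keeps this order. A Visium spot is a small area of tissue that can hold several cells of different types, so a member is a place rich in these transcripts and not a cell type. The label was borne out at most in part. By marker lists 367 members (63.2%) had cortex of any layer around them. The other 214 (36.8%) lay in tissue led by the markers of striatum, hippocampus, hypothalamus, white matter or thalamus.

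Spatial transcriptomes were taken from 1 section of each of 4 mice to compare animals with and without a place-avoidance memory. All mice were adult ArcCreERT2::eYFPflx males on a C57BL/6 background, 3 to 4 months old, in which Cre is made under the Arc promoter and, once 4-hydroxytamoxifen is given, switches on eYFP for good in the cells that express it. The 2 trained mice met an active shock zone on a rotating arena in 4 trials of 30 min, and the 2 untrained mice walked the same arena without shock. All 4 mice received 4-hydroxytamoxifen under isoflurane, took a retention test without shock, and were killed 3 days after it. The labels name hippocampus as the tissue, but the sections also held cortex, striatum, thalamus and hypothalamus. The spots of a section share a mouse, so the section was the replicate (n = 2 against 2). A p-value covers these mice and sections only, and those of edgeR also rest on a variance shared over genes.

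Layers 2 to 4 of the neocortex lie just under the pial surface and hold small excitatory neurons that connect cortical areas with each other, whereas layers 5 and 6 send axons out of the cortex. Cux2 encodes a homeodomain transcription factor of layers 2 to 4, Rasgrf2 a guanine nucleotide exchange factor for Ras and Rac, and Lamp5 a membrane protein of the LAMP family that marks both upper-layer excitatory neurons and a class of interneurons that includes the neurogliaform cells of layer 1. Each of these genes is also transcribed elsewhere in the forebrain. In mm10 coordinates Lamp5 is a protein-coding gene at chr2:136052239-136069917 on the plus strand, and Cux2 and Rasgrf2 are protein-coding genes at chr5:121856366-122050102 and chr13:91880400-92131656 on the minus strand.

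The sections differed before any comparison of members. Totals ran from 3560294 UMIs in untrained 1 to 10330015 in trained 2, and untrained 1 had the most spots below 500 UMIs, 538 against 226 to 264. In untrained 1 the dorsal cortex ran out of the capture area, as its map shows. The median kept spot outside the members held 1297.5 UMIs in untrained 1 and 2003 to 2670 in the others, and the members' median was 2302.5, 2883, 2613 and 2261. Mitochondrially encoded transcripts took 56857 CPM (UMIs per 1000000) in the members of trained 2 and 118505 to 124958 in the other sections.

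The values that chose the members are given as a description only. Lamp5 stood at 641, 547, 354 and 599 CPM in the members and at 81.2, 68.5, 52.3 and 77.2 in all other spots. Rasgrf2 stood at 387, 368, 448 and 399 CPM against 73.3, 67.8, 99.2 and 82.6. Cux2 stood at 162, 70.5, 184 and 146 CPM against 33.2, 27.3, 29.4 and 30.4. Lamp5 was thus lowest in the members of untrained 1 and Cux2 lowest in those of trained 2. The choice rested on few molecules: the median member held 3, 3, 2 and 3 UMIs of the 3 genes together. Per 10000 UMIs the last spot taken had a share of 8.12, 6.64, 6.28 and 7.96 and the first spot left out 8.09, 6.62, 6.25 and 7.96, so the limit cut through a continuous range, and the highest shares were 29.6, 28.2, 38.2 and 58.5.

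The members differed among themselves in which of the genes they carried. Of the 581 members, 72 (12.4%) held UMIs of all 3 genes, 294 (50.6%) of 2 and 215 (37.0%) of only 1. Lamp5 with Rasgrf2 was the commonest combination (189 members), followed by Lamp5 alone (119), Rasgrf2 alone (84), Lamp5 with Cux2 (59), Cux2 with Rasgrf2 (46) and Cux2 alone (12). These kinds lay in different places. Of the members with Lamp5 alone, 84.9% had cortex around them (87.5, 86.4, 71.4 and 86.2% by section), and of those with all 3 genes 80.6%. Of the members with Rasgrf2 alone, 23.8% did (18.8, 6.45, 35.0 and 47.1%), and of the 12 with Cux2 alone 8.33%. Every section thus had a lower share of cortex around its Rasgrf2-only members than around its Lamp5-only members. Lamp5 itself stood at 743, 771, 412 and 662 CPM in members with cortex around them and at 392, 216, 258 and 404 CPM in the rest. Rasgrf2 stood at 332, 185, 417 and 362 CPM against 522, 638, 498 and 510. Since the rule took the sum of the 3 genes, members low in one are high in another, and the opposite direction of these levels is no separate result.

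**Figure D1:**
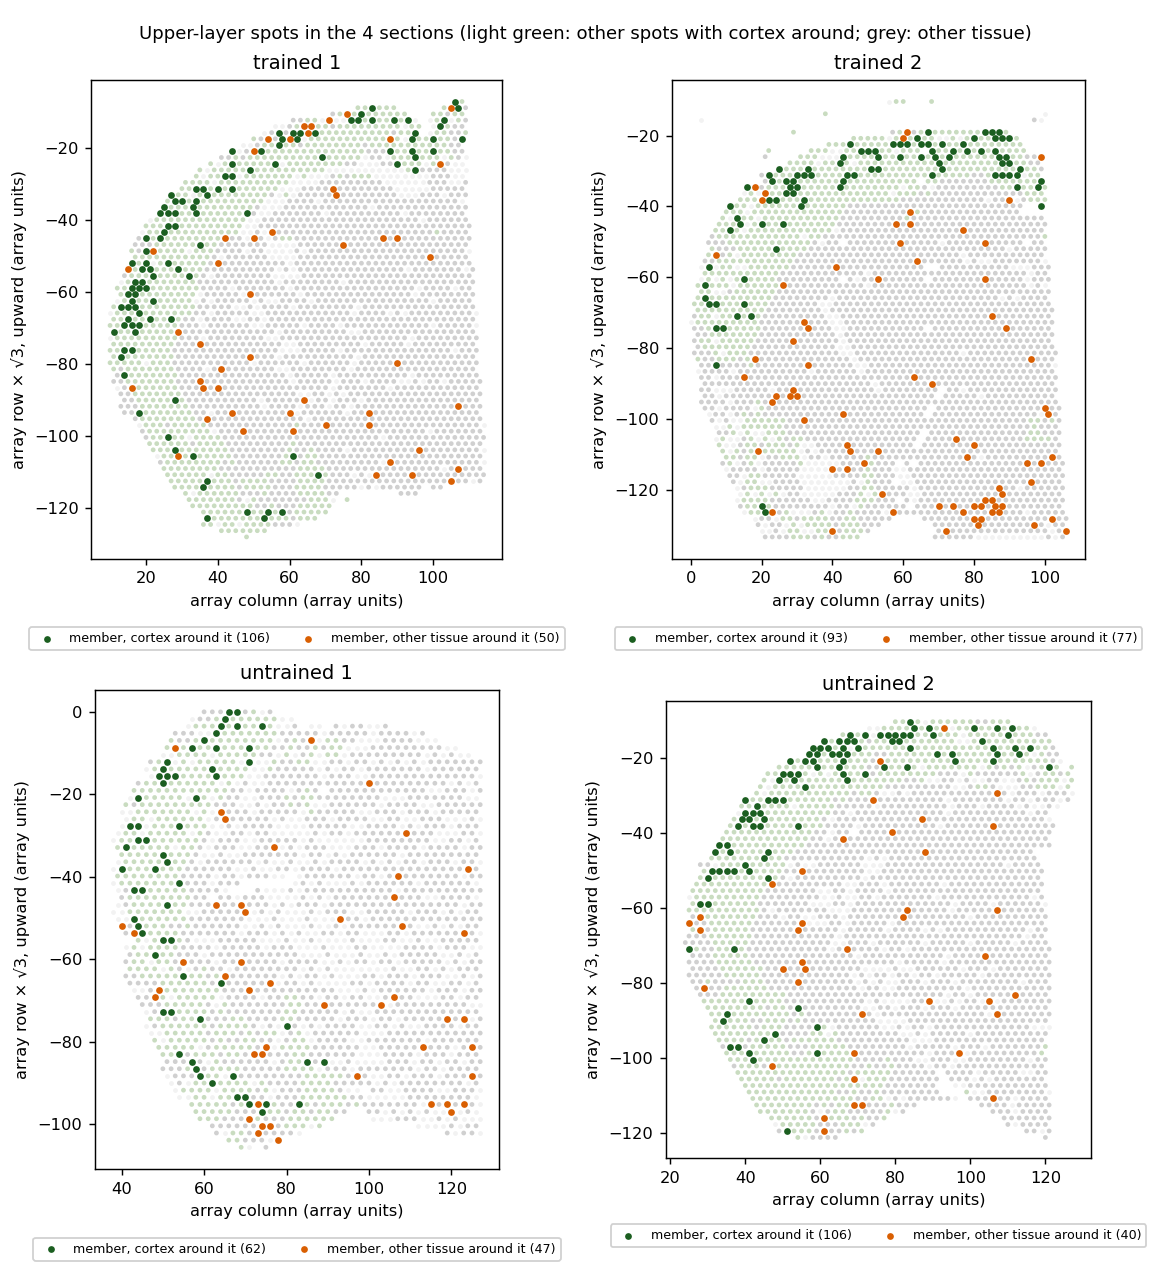
Position of the members in the 4 sections, drawn on the spot array (array column across, array row upward, in array units). Dark green points are members with cortex around them (106, 93, 62 and 106), orange points are the other members (50, 77, 47 and 40), light green points are other spots with cortex around and grey points the remaining tissue. The dark green members follow the outer rim of the cortex, and orange members lie scattered through the interior, with a group at the base of trained 2.

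Position was not used by the rule, and the members lay toward the outer surface. Within 3 array steps of the tissue edge were 49.4, 41.8, 29.4 and 50.7% of the members, against 20.04, 29.6, 22.7 and 23.0% of the other spots. The share was higher in 4 of 4 sections, by 19.0 percentage points on average (42.8 ± 9.78% against 23.8 ± 4.06%, SD, n = 4). An exact sign-flip permutation test over the 4 sections gave a two-sided p = 0.125, the smallest that 4 sections allow, and again 0.125 after Benjamini-Hochberg adjustment over 2 such tests, this one and that of the surrounding tissue. Untrained 1, whose map lacks the dorsal rim, had the lowest share. The part of this and of its low depth in that share was not tested. The edge is the nearest array position without tissue, inner gaps included. The median member lay 4, 4, 5 and 3 steps from the edge and the median other spot 8, 5, 7 and 7.

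Members also tended to lie beside each other. Of the neighbours of a member, 17.8, 18.3, 13.7 and 21.4% were members themselves, against 5.25, 5.26, 6.08 and 5.14% of the neighbours of other spots, so the share was higher in 4 of 4 sections. Both sides of this comparison rest on the rule genes, and it is given as a description with no test. A neighbour of a spot is any of the 6 that touch it on the array. Still, only 41, 51, 18 and 46 members touched 2 or more others, and 73, 70, 55 and 53 touched none.

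The tissue around each spot was read from marker lists in the 2 rings of neighbours, without the spot itself. Cortex was read from the lists of cortical excitatory neurons, layer 5 and layer 6, and amygdala was not among the choices. The reading thus does not tell upper from deep layers. Cortex led the surroundings of 67.9, 54.7, 56.9 and 72.6% of members and of 30.5, 24.6, 28.2 and 32.3% of other spots (difference 34.2 points, higher in 4 of 4 sections, exact sign-flip permutation p = 0.125). The layer 5 spots, chosen in the same way by Etv1, Fezf2 and Deptor, had cortex around 44.3% of them, and the layer 6 spots, chosen by Rprm, Syt6 and Tle4, around 54.0%. The other members lay in surroundings of striatum (60), hippocampus (53), hypothalamus (45), white matter (30) and thalamus (26). Members surrounded by hypothalamus were unevenly spread, with 7, 25, 10 and 3 per section.

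**Figure D2:**
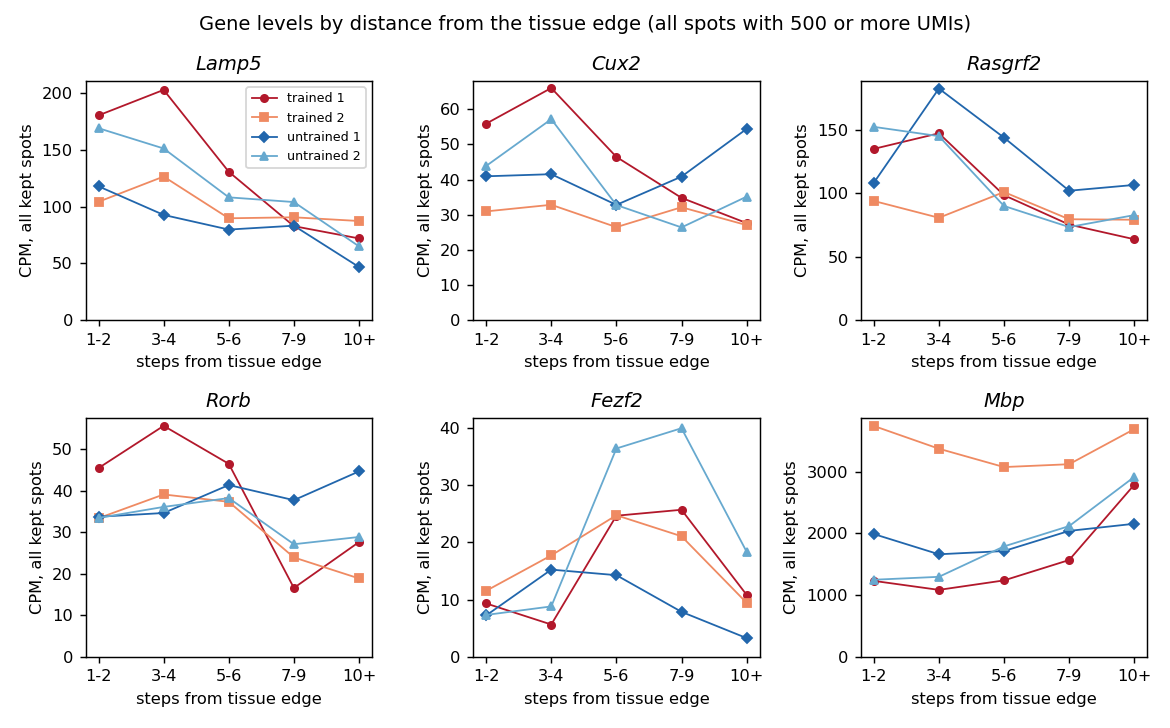
Levels of 6 genes (CPM over all spots with at least 500 UMIs) by distance from the tissue edge in array steps, with 1 line per section. Lamp5 stood at 181, 104, 118 and 169 CPM in the outermost 2 steps and at 72.0, 87.4, 46.8 and 65.0 CPM at 10 or more steps, and in 3 of the sections Fezf2 was highest at 5 to 9 steps.

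Across all kept spots, gene levels were followed by distance from the edge. Lamp5 was lower at 10 or more steps from the edge than in the outermost 2 steps in all 4 sections. Fezf2, a transcription factor that specifies layer 5 neurons projecting below the cortex, was highest at 7 to 9 steps in trained 1 (25.7 CPM) and untrained 2 (39.9 CPM), at 5 to 6 steps in trained 2 (24.7 CPM) and at 3 to 4 steps in untrained 1 (15.2 CPM). Depth did not separate all upper-layer from all deep-layer genes. Rprm, a layer 6 gene, was highest at 3 to 4 steps in trained 1 (110 CPM), untrained 1 (162 CPM) and untrained 2 (116 CPM), and Cux2 in untrained 1 was highest at 10 or more steps (54.4 CPM, against 40.9 CPM in the outermost 2). Mbp, myelin basic protein, stood at 1231, 1991 and 1250 CPM in the outermost 2 steps of trained 1, untrained 1 and untrained 2 and at 2790, 2158 and 2917 CPM at 10 or more steps. In trained 2 it was as high at the edge (3745 CPM) as deep in the section (3693 CPM).

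Markers of the upper cortex that the rule did not use were higher in the members, with exceptions. Since every gene of a spot belongs to the contrast that chose it, these values are a description with no test. The 12 layer 2/3 genes summed to 625, 558, 668 and 564 CPM in the members and 503, 423, 526 and 513 CPM in the other spots, a ratio of 1.24, 1.32, 1.27 and 1.10. The 3 layer 4 genes had ratios of 1.46, 1.64, 1.34 and 2.46, and the 9 genes of cortical excitatory neurons 1.95, 1.61, 1.35 and 1.75. All 3 lists were thus higher in every section, by less than the rule genes were. They were also higher than in layer 5 and layer 6 spots, with an exception in untrained 2. There the layer 2/3 genes stood at 564 CPM in members and 585 CPM in layer 6 spots. In trained 2 the excitatory genes barely differed, at 4514 CPM in members and 4508 CPM in layer 6 spots. Layer 6 genes were lower in every section, with ratios of 0.763, 0.661, 0.854 and 0.665. Layer 5 genes were not ordered in a single way, at 0.829, 1.21, 0.920 and 0.999.

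Gene by gene, Stard8 had the largest median ratio of the layer 2/3 list. It stood at 40.0, 23.0, 40.1 and 23.6 CPM in the members against 11.6, 8.32, 11.6 and 9.38 CPM, on 56 UMIs in all. Cux1, a homeodomain factor related to Cux2, stood at 86.2, 79.7, 100.2 and 84.9 CPM against 65.6, 54.1, 57.2 and 62.7. Calb1, the calcium-binding protein calbindin, stood at 198, 195, 187 and 189 CPM against 170, 146, 169 and 162 CPM. All 3 were higher in the members of all 4 sections, as were Matn2, Nectin3 and Agmat. Wfs1, which encodes an endoplasmic reticulum protein, and Plcxd2 and Inhba were higher in only 2 sections each, and Adamts2 was lower in all 4. Inhba had 0 UMIs in the members of untrained 1, which allows up to 3 of the 299262 UMIs there.

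Layer 4 and the excitatory neurons gave clearer ratios for some of their genes. Rspo1, a secreted activator of Wnt signalling found in layer 4, stood at 16.8, 35.2, 16.7 and 35.4 CPM in members and 9.60, 9.99, 6.46 and 9.38 CPM elsewhere. Rorb, the nuclear receptor of layer 4, stood at 50.5, 32.2, 43.4 and 63.7 CPM against 34.6, 30.4, 38.8 and 29.8 CPM. Both were thus higher in all 4 sections. Slc17a7, the vesicular glutamate transporter of cortical excitatory neurons, was higher in 4 of 4 sections, with ratios of 1.16 to 1.43. Neurod6, a transcription factor of the same neurons, was higher in only 1.

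**Figure D3:**
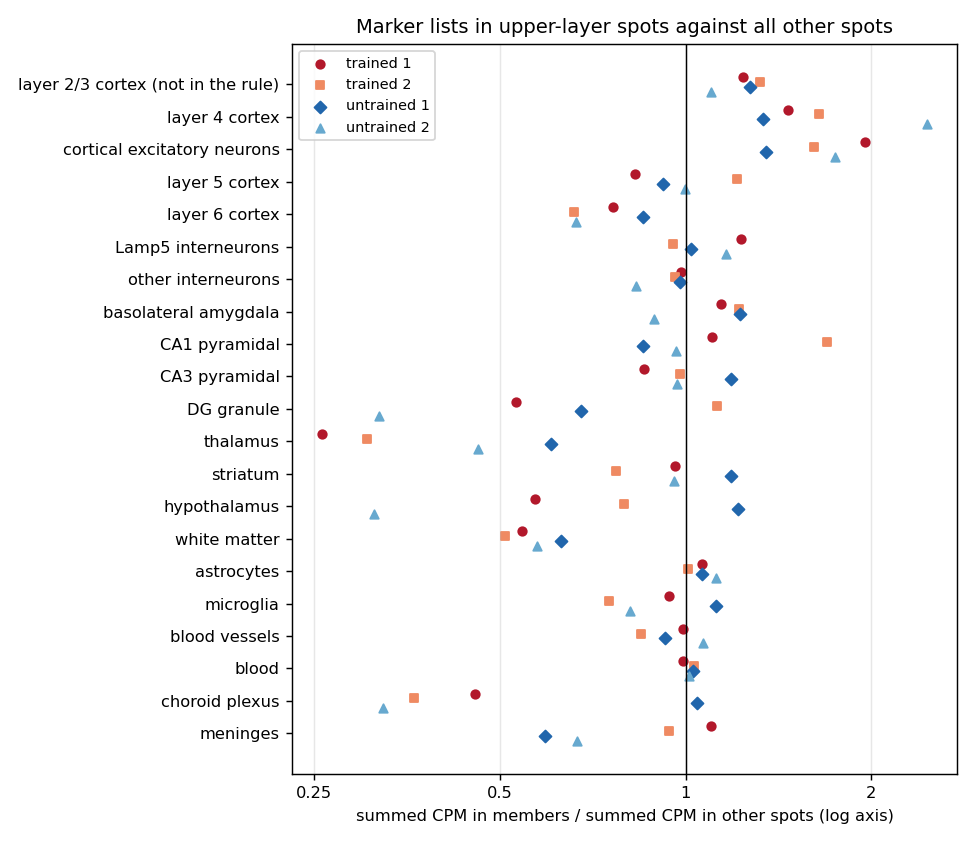
Ratio of summed CPM in members to that in all other spots (log axis) for 21 marker lists, with 1 point per section and a line at 1. Layer 2/3, layer 4 and cortical excitatory lists lie right of the line in all 4 sections, and layer 6, thalamus and white matter lists lie left of it in all 4.

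Markers of other cells and regions were present in the members. Basolateral amygdala genes had ratios of 1.14, 1.22, 1.22 and 0.888. Thalamic genes had ratios of 0.258, 0.304, 0.606 and 0.461 and white matter genes 0.543, 0.510, 0.627 and 0.574, so both were lower in all sections without being absent. The Lamp5 interneuron list, which holds Ndnf, Id2, Reln, Npy and the GABA synthesis and transport genes, had ratios of 1.23, 0.954, 1.02 and 1.16, with no common direction. The list of other interneurons was slightly lower in all 4 sections, with ratios of 0.985, 0.963, 0.981 and 0.833. Id2 (1.06 to 1.66) and Reln (1.26 to 1.83), which are high in layer 1 interneurons, were higher in the members of all 4 sections, whereas Gad2, an enzyme of GABA synthesis, was lower in all 4 (0.710 to 0.913). Ndnf, a marker of neurogliaform cells, had 10, 8, 0 and 7 UMIs. Vip, the neuropeptide of an upper-layer interneuron class, had ratios of 1.23 to 3.58. Hypothalamic genes summed to 315, 1808, 1160 and 191 CPM in the members, so they were high in trained 2 and untrained 1. Choroid plexus genes, mostly Ttr, summed to 2620, 199, 2593 and 1790 CPM.

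Beyond the lists, 2905 genes had at least 20 UMIs in the members of every section, and 540 of them were higher in the members in all 4, but only the 3 rule genes by more than 1 log2 unit in each. The largest ratios in the weakest section, after the rule genes, were those of Egr3 and Mef2c. Mef2c, a transcription factor of cortical excitatory neurons, stood at 391, 348, 317 and 408 CPM in members and 194, 176, 203 and 230 CPM elsewhere. Egr3, an immediate early gene, stood at 114, 116, 93.6 and 153 CPM against 70.8, 66.3, 59.1 and 88.2 CPM. Camk2n1, an inhibitor of CaMKII, stood at 2452, 1482, 2015 and 2613 CPM against 1177, 914, 1339 and 1310 CPM. In all 3 genes every section had the members higher. Satb1, a chromatin organiser (log2 ratio 0.55 to 1.28), Bhlhe40, a repressor of the clock network (0.56 to 0.92), Junb, an AP-1 subunit (0.52 to 0.74), Itpka, a kinase of dendritic spines (0.50 to 1.01), Car10 (0.56 to 0.82), Klhl23 (0.62 to 0.79), Cdk2ap1 (0.55 to 0.83), Mat2b (0.53 to 0.67) and Pop5 (0.49 to 0.58) completed this group.

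Lower in the members of every section were 1131 of 10825 genes with at least 20 UMIs in the other spots, 5 of them by more than 1 log2 unit in each. Prkcd, a protein kinase C of thalamic relay neurons, stood at 31.5, 96.5, 114 and 99.1 CPM in members against 196, 425, 247 and 213 CPM. Zic1, a transcription factor of septum and thalamus, stood at 21.0, 27.6, 30.1 and 16.5 CPM against 80.3, 80.9, 61.4 and 64.0 CPM. Prr18, an oligodendrocyte gene (log2 ratio -1.29 to -1.13), Clic4, a chloride channel protein (-1.16 to -1.10), and Synpo2 (-1.73 to -1.02) were the others below -1. Ppp1r14a (-1.73 to -0.98), Rasd1 (-1.85 to -0.95) and Syt9 (-2.27 to -0.88) followed.

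Against layer 5 spots 279 of the 2905 genes were higher in the members of all 4 sections, and against layer 6 spots 287. The 2905 genes had been filtered on UMIs in the members only, so these counts are a description. Of the 1564 genes with at least 20 UMIs in the layer 5 spots of every section 242 were lower in the members of all 4, and of the 2608 in layer 6 spots 348. Compared with layer 5 spots, Vopp1 (log2 ratio 0.59 to 0.86), Cdk2ap1 (0.57 to 0.64), Gfod1 (0.54 to 1.12), Sipa1l1 (0.48 to 0.55) and Dnajb14 (0.47 to 1.52) were higher in the members of every section. Their counts were low, at 7, 9, 6, 15 and 4 UMIs in the layer 5 spots of the section with the fewest. Pcp4, a calmodulin regulator of layer 5 neurons, was lower (-1.39 to -0.45), as were Ntng1 (-1.29 to -0.63), Nrip3 (-0.99 to -0.59), Sez6 (-0.79 to -0.54), the transferrin gene Trf (-1.10 to -0.50), Necab1 (-0.72 to -0.43) and Crym (-0.73 to -0.42). Compared with layer 6 spots, Pvalb, the calcium-binding protein of fast-spiking interneurons, stood at 257, 297, 124 and 222 CPM in the members and 129, 158, 51.5 and 87.7 CPM there. Vamp1, a vesicle SNARE (0.83 to 1.13), Rims3, an active zone protein (0.59 to 1.14), Bhlhe40 (0.73 to 0.97) and Ccng1 (0.62 to 1.11) were also higher, and Epha7, an ephrin receptor (-0.82 to -0.60), Slc35f1, Camk1, Plppr4, Ncald and Arhgef7 were lower. Etv1, Rprm and Tle4, also lower in the members, had chosen the deep-layer spots.

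The comparison of trained with untrained mice asked whether gene expression in these spots differed 3 days after the retention test. Member UMIs were summed per section (475558, 652659, 299262 and 424023) and 7504 genes passed the filter on low counts. edgeR's quasi-likelihood test called 0 of 7504 genes after Benjamini-Hochberg adjustment at 0.05 (0%), and 372 genes (4.96%) had an unadjusted p under 0.05. DESeq2 called 1 gene and limma with voom called 1, Bc1 in both cases. In summed tissue, fewer cells of a type and less RNA per cell cannot be told apart. The number called rested on single sections: without trained 1 it was 69 (22 higher and 47 lower), without trained 2 it was 7, without untrained 1 it was 3 and without untrained 2 it was 0.

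The smallest p-values belonged to hypothalamic neuropeptides and a few transcripts of other kinds, none of them called. Oxt, the oxytocin precursor of magnocellular hypothalamic neurons, had 82, 41, 2 and 0 UMIs in the members, or 172, 62.8, 6.68 and 0 CPM. Both trained sections were above both untrained ones. The fitted log2 fold change was 5.14 ± 0.84 (SE, adjusted p = 0.052), and the ratio of the summed UMIs was 39.4 with an exact 95% interval of 10.7 to 329, which covers counting error only. Most of these UMIs lay outside cortex, since members with cortex around them held 14, 4, 1 and 0 of them. The other spots of the sections showed the same order, at 262, 53.5, 3.23 and 0.823 CPM, and the difference between the training effects in upper-layer and deep-layer spots had an adjusted p = 0.998 by edgeR. Of 13 alternatives for Oxt 8 passed the threshold, with adjusted p from 1.27e-22 to 1.0.

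Avp, the vasopressin precursor, stood at 120, 340, 66.8 and 4.72 CPM (57, 222, 20 and 2 UMIs), again with both trained sections above both untrained (log2 fold change 2.79 ± 0.56, edgeR adjusted p = 0.361). In members with cortex around them it stood at 53.3, 56.5, 48.2 and 6.25 CPM. Pdyn, the dynorphin precursor, had 25, 62, 8 and 9 UMIs (1.57 ± 0.39, adjusted p = 0.721). Both are made in the hypothalamus. The shares of members with hypothalamus around them were 4.49, 14.7, 9.17 and 2.05%. That reading used Avp and Oxt among its markers, and the part of hypothalamic tissue in these differences was not tested. In the edgeR fit on members with cortex around them, the log2 fold change was 1.2 for Avp (adjusted p = 0.782) and 1.03 for Pdyn (adjusted p = 0.842), both smaller than over all members, and Oxt did not pass the filter on low counts. That fit called 0 of 6279 genes (356 with an unadjusted p under 0.05), as the fit over all members had called 0.

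Among the other genes of smallest p, Bc1, a small noncoding RNA transported into dendrites, was the most abundant. It stood at 20366, 14996, 47072 and 33861 CPM, lower in both trained sections (log2 fold change -1.28 ± 0.32, edgeR adjusted p = 0.721). DESeq2 gave it an adjusted p = 0.0028 and limma with voom 0.024. The other spots held 22651, 16220, 47161 and 33641 CPM, so the same order ran through the whole of each section. The long noncoding transcript 2900052N01Rik stood at 14.7, 29.1, 90.2 and 94.3 CPM (-2.11 ± 0.34, adjusted p = 0.052) and at 37.3, 34.7, 110 and 103 CPM in the other spots. Of its 15 alternatives 7 passed the threshold. Both untrained sections were above both trained ones.

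Mto1, which encodes an enzyme that modifies mitochondrial transfer RNAs, stood at 6.31, 7.66, 33.4 and 40.1 CPM, on 3, 5, 10 and 17 UMIs (log2 fold change -2.45 ± 0.54, edgeR adjusted p = 0.578). In the other spots its levels overlapped, at 17.1, 21.1, 15.8 and 18.3 CPM. The difference of its training effect from that in deep-layer spots had an unadjusted p = 0.00084 and an adjusted p = 0.454. Lsm7, a subunit of the ring that binds U6 RNA and decaying messages, stood at 183, 247, 100.2 and 108 CPM (0.94 ± 0.22, adjusted p = 0.656). Arap2, a regulator of Arf signalling, stood at 61.0, 59.8, 16.7 and 18.9 CPM (1.63 ± 0.40, adjusted p = 0.721). AC149090.1 stood at 326, 283, 180 and 101 CPM (1.05 ± 0.25) and mt-Atp8, a subunit of ATP synthase, at 200, 85.8, 331 and 309 CPM (-1.28 ± 0.30), both with adjusted p = 0.656. Each of these 5 genes had both trained sections on the same side of both untrained ones, as had 23.9% (trained higher) and 11.4% (trained lower) of all genes tested.

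**Figure D4:**
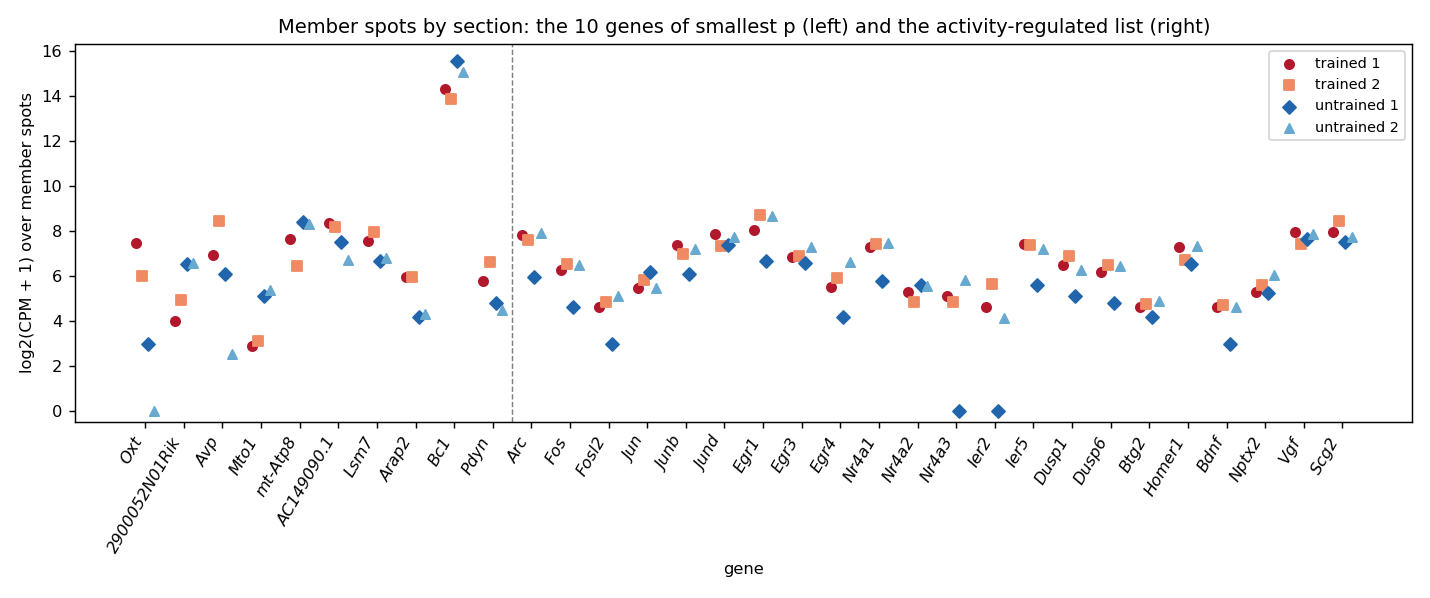
Level in the members of each section, as log2(CPM + 1), of the 10 genes with the smallest p between conditions (left of the dashed line) and of the 22 activity-regulated genes that were tested (right). On the left both trained sections lie on one side of both untrained ones, and on the right untrained 1 is the lowest section for 18 of 22 genes.

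Activity-regulated genes, which neurons transcribe within minutes to hours of firing, separated untrained 1 from the rest rather than the conditions. Their sum was 2551, 2625, 1363 and 2823 CPM in the members. No member of the list was called among 22 tested, 12 were higher and 10 lower in trained sections, and the median log2 fold change was 0.20 (0.0016 over all genes tested, of which 50.3% were above 0). Untrained 1 was the lowest section for 18 of 22 of them (81.8%), against 32.0% of all genes. The median became -0.30 without untrained 1 and 1.47 without untrained 2. Outside the members the same section was lowest as well, at 1456 CPM against 1933 to 2056, and the ratio of members to other spots was 1.32, 1.35, 0.937 and 1.37.

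Arc, the gene whose promoter drives the Cre of these mice, stood at 225, 188, 60.1 and 236 CPM. Egr1, a zinc finger immediate early gene, stood at 263, 415, 100.2 and 406 CPM, and Fos at 75.7, 91.9, 23.4 and 87.3. In all 3 genes untrained 2 lay within or above the range of the trained sections, and untrained 1 below it. Arc and Fos were named here after their values were seen. Scg2, secretogranin II, stood at 248, 343, 180 and 208 CPM (0.51 ± 0.20, edgeR adjusted p = 0.924), Vgf at 248, 167, 197 and 231, and Jund at 231, 159, 164 and 210. The members of untrained 1 also had the lowest ratio of cortical excitatory genes (1.35) and the smallest sum of UMIs, and the part of either in the low values was not tested.

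Mitochondrially encoded genes were lower in trained members for 12 of 12 tested, with a median log2 fold change of -0.60, and none was called. mt-Co1, a subunit of cytochrome c oxidase, stood at 23524, 11409, 20577 and 24711 CPM and mt-Nd1, a subunit of complex I, at 7644, 3276, 7873 and 7967 CPM. Trained 2 was the lowest section for 12 of 12 of these genes (16.4% of all genes), and both trained sections lay below both untrained ones for 9 of 12 (11.4% of all genes). Trained 1 was close to the untrained sections for mt-Co1 and mt-Nd1 but not for mt-Atp8. The median was -0.11 without trained 2 and -1.41 without trained 1. The other spots of trained 2 were low as well, at 69138 CPM against 114850 to 122500.

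Of the nuclear genes of oxidative phosphorylation, 64 of 77 were higher and 13 lower in trained members, with a median of 0.20 and none called. Of the 77, 49 had both trained sections above both untrained ones, against 23.9% of all genes tested (1790 of 7504). Cox6c, a subunit of cytochrome c oxidase, stood at 1411, 1748, 1049 and 1290 CPM (0.33 ± 0.20, edgeR adjusted p = 0.930) and Cox8a at 2242, 2124, 1383 and 2078 CPM. Cox4i1, a further subunit, stood at 1424, 1577, 1160 and 1394 CPM. In all 3 the trained sections were above the untrained ones, though Cox8a and Cox4i1 of untrained 2 lay close to the trained values. Untrained 1 was the lowest section for 56 of the 77, and the median ran from 0.11 to 0.31 over the alternatives. The ratio of members to other spots was 0.971, 0.966, 0.971 and 0.979, so the order was that of the whole sections.

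Synaptic genes were lower in trained members more often than higher. Of 25 synaptic vesicle genes 19 were lower (median -0.20) and of 22 postsynaptic genes 17 (median -0.22), with none called in either list. Camk2a, the alpha subunit of CaMKII, stood at 681, 388, 665 and 873 CPM (-0.62 ± 0.25, edgeR adjusted p = 0.924), and Nrgn, the calmodulin-binding neurogranin, at 2912, 1736, 2045 and 2868. Trained 2 was the lowest section in both, whereas trained 1 lay between the untrained sections for Camk2a and above both for Nrgn. The postsynaptic median was 0.041 at its highest and -0.42 at its lowest over the alternatives. Snap25, a presynaptic SNARE, overlapped between conditions at 3770, 3699, 3161 and 3759 CPM, and Syt1, the calcium sensor of vesicle release, was lower in both trained sections at 906, 864, 976 and 950 CPM (log2 difference -0.21 ± 0.18 SE, edgeR adjusted p = 0.952). The postsynaptic sum was higher in members than in the other spots of every section, with ratios of 1.65, 1.34, 1.24 and 1.49. In the members it was 10413, 7195, 8735 and 10540 CPM. The cortical excitatory list, which shares Nrgn and Camk2n1 with it, summed to 6998, 4514, 5580 and 7207 CPM. Trained 2 was thus lowest in both, and the part of cell content in the synaptic differences was not tested.

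No gene of the remaining functional lists was called. Cytoplasmic ribosomal genes were higher for 50 of 80 (median 0.047), glycolytic genes for 9 of 15 (0.0080), glutamate receptors for 8 of 16 (0.0029) and GABA receptors for 8 of 12 (0.089). Potassium channels were higher for 19 of 44 (-0.039), sodium, calcium and HCN channels for 14 of 28 (-0.055), neuropeptides and granins for 8 of 15 (0.051), and chaperones for 3 of 11 (-0.035). Glucocorticoid-responsive genes were higher for 4 of 6, with a median of 0.20 against 0.0016 over all genes. Gria1, an AMPA receptor subunit, stood at 147, 142, 261 and 158 CPM (-0.60 ± 0.24, edgeR adjusted p = 0.924). Only untrained 1 stood out for this gene. Sgk1, a kinase induced by glucocorticoids, stood at 126, 199, 96.9 and 165 CPM, overlapping between conditions.

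Markers of the upper cortex gave no call between the conditions either. Of the 7 layer 2/3 genes tested 2 were higher and 5 lower (median -0.11), both layer 4 genes were lower (-0.33), and 3 of 9 cortical excitatory genes were higher (-0.15). Wfs1 stood at 90.4, 78.1, 170 and 94.3 CPM (-0.71 ± 0.28, edgeR adjusted p = 0.924), with untrained 1 alone high. Plcxd2 stood at 75.7, 76.6, 40.1 and 47.2 CPM (0.68 ± 0.30, adjusted p = 0.924), with both trained sections above. Pvalb stood at 257, 297, 124 and 222 CPM (0.55 ± 0.23, adjusted p = 0.924) and Sst, the neuropeptide of another interneuron class, at 467, 343, 615 and 422 CPM (-0.44 ± 0.22). Pvalb was thus higher in both trained sections, while Sst overlapped. Rgs9, a striatal regulator of G protein signalling, stood at 46.3, 46.0, 13.4 and 18.9 CPM (1.36 ± 0.44, adjusted p = 0.924).

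Whether training effects differed between the upper-layer and deep-layer spots was tested over 12 sums, with the section as a term. Of 9706 genes 3 were called (0.0309%) and 511 (5.26%) had an unadjusted p under 0.05. Of the 3, Mobp and Hap1 are described here. Mobp, a protein of compact myelin, stood at 204, 529, 294 and 283 CPM in upper-layer spots, 324, 1090, 326 and 374 in layer 5 spots and 260, 828, 190 and 254 in layer 6 spots. Trained 2 was high in each, and more so in the deep layers (difference -0.82 ± 0.17, edgeR adjusted p = 0.031). Hap1, huntingtin-associated protein 1, stood at 128, 216, 237 and 87.3 CPM in upper-layer spots, 139, 99.5, 268 and 163 in layer 5 spots and 165, 101, 348 and 269 in layer 6 spots. Conditions overlapped in the upper layer, and trained sections were lower in both deep layers (difference 1.24 ± 0.26, adjusted p = 0.031). White matter marker sums in upper-layer, layer 5 and layer 6 spots were 3490, 7200 and 5607 CPM in trained 2 and 2147 to 2643, 2881 to 3536 and 2296 to 2621 CPM in the other sections, and their part in the Mobp result was not tested.

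The next genes in order of p were not called. Mal, another myelin protein, had a difference of -1.03 ± 0.23 (edgeR adjusted p = 0.075) and Mbp -0.56 ± 0.13 (0.084), in the direction of Mobp. Ttr, transthyretin (-1.196 ± 0.29), Ndufb9, a complex I subunit (-0.63 ± 0.16), Resp18 (0.86 ± 0.21), Bpnt1 (-1.48 ± 0.37) and Vip (1.60 ± 0.40) followed, with adjusted p from 0.126 to 0.159. Vip stood at 105, 55.2, 63.5 and 30.7 CPM in upper-layer spots, at 29.4, 17.9, 51.1 and 26.6 in layer 5 spots and at 25.6, 18.9, 71.3 and 27.4 in layer 6 spots. Its levels overlapped between conditions in the upper layer. Without trained 1, trained 2, untrained 1 and untrained 2 the number of genes called was 16, 2, 0 and 0, and the 3 genes were among the 16 only.

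Gt(ROSA)26Sor, the antisense noncoding gene at chr6:113067428-113077333 (mm10, minus strand) that spans the locus carrying the reporter, is the transcript the study reads as eYFP. No eYFP or Cre feature was analysed here, and whether its UMIs come from the reporter or from the endogenous locus cannot be told apart. At least 1 UMI was found in 41 of 156, 49 of 170, 1 of 109 and 60 of 146 members, or 26.3% (exact 95% interval 19.6 to 33.9), 28.8% (22.1 to 36.3), 0.917% (0.0232 to 5.01) and 41.1% (33.0 to 49.5). These intervals cover counting error only. The highest and the lowest section were both untrained.

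The share was 27.6 ± 1.80% in trained and 21.0 ± 28.4% in untrained sections (SD, n = 2 each), a difference of 6.55 points (exact permutation test, two-sided, p = 1.0, where 2 against 2 cannot go below 0.333). Without untrained 1 the difference was -13.5 points. All other spots held 25.5, 31.7, 2.57 and 38.0%, so members were higher in 2 of 4 sections, given as a description with no test. Layer 5 spots held 41.5, 45.3, 4.55 and 55.6% and layer 6 spots 43.8, 41.8, 4.69 and 58.5%, at a median depth of 2567.5 to 5390 UMIs per spot. After thinning of all spots to 500 UMIs, Gt(ROSA)26Sor was found in 7.69, 4.12, 0 and 8.90% of members, 8.47, 5.88, 2.27 and 14.3% of layer 5 spots and 6.57, 8.24, 1.56 and 11.3% of layer 6 spots. All other spots held 6.26, 5.83, 0.643 and 10.9% after thinning, so members were then higher in trained 1 only. By CPM the members were lower in every section, at 107, 107, 3.34 and 210 against 124, 124, 14.2 and 221 in all other spots. The 0 of 109 in untrained 1 after thinning allows a share of up to 2.75% by a limit of 3 spots, or 3.33% by the exact 95% interval, of spots with a UMI among 500, and 1 of the 109 had one before thinning.

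**Figure D5:**
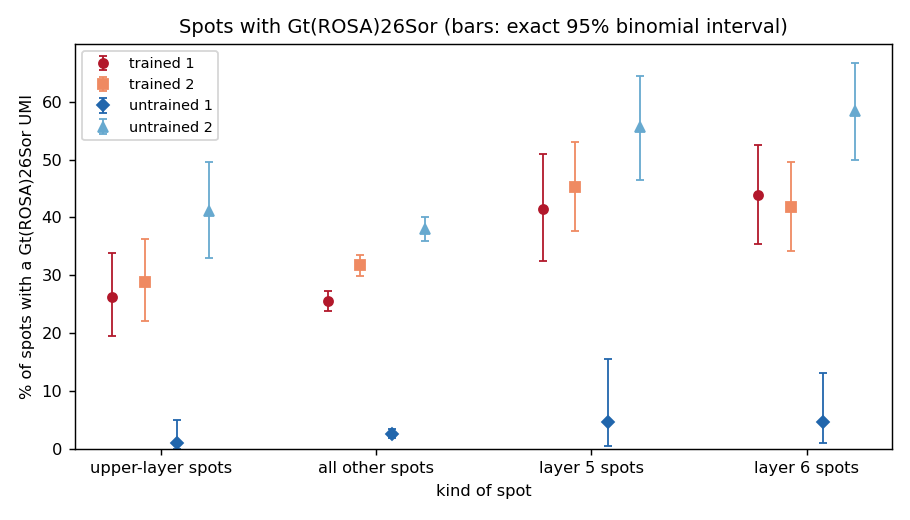
Percent of spots with at least 1 Gt(ROSA)26Sor UMI in upper-layer, all other, layer 5 and layer 6 spots of each section, with exact 95% binomial intervals as bars. Untrained 1 lies below 5% in all 4 kinds of spot, and untrained 2 is the highest section in each.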

How the data were processed

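Visium spatial RNA was measured in 1 section of each of 4 mice. The authors deposited raw UMI counts, not normalized, for 32285 genes in each spot. Reads were demultiplexed with bcl2fastq2, trimmed with TrimGalore and counted with Space Ranger on mm10, per the methods. Space Ranger 1.2.2 stands in the file headers, and the submitters' processing notes list Cell Ranger 8, STAR and mm39. Spot positions, also deposited, were used as array coordinates (row and column), and scale factors were not used. Genes were placed with GENCODE vM21, in which 32158 were found.

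The members, lists and tests were chosen with earlier results of these data known. UMIs were summed per section over the members and, for CPM, divided by the sum. The test was glmQLFTest of edgeR 4.0.16 in R 4.3.3 (two-sided, after filterByExpr, TMM and glmQLFit), with Benjamini-Hochberg adjustment and a threshold of 0.05 (2 residual and 14.1 prior degrees of freedom). The deep-layer comparison used 12 sums with section and layer as terms, leaving out the 9 genes that chose the spots (4 residual and 73.1 prior degrees of freedom). Both fits thus draw most of their variance from all genes together. Their p-values do not measure the spread between 4 mice alone. DESeq2 1.42.0, limma 3.58.1, no filter on low counts, library totals, thinned sums, other shares of spots, a replicate block, leaving out each section, and a rank-sum test over spots as in the methods were alternatives. Members with cortex around them were added as an alternative after seeing the data. Named genes are the 10 smallest p of a fit with fewer than 5 calls, the 2 to 4 most abundant genes of a list, and against other spots the 15 highest and 8 lowest ratios by their weakest section (8 and 8 against each deep layer), and some genes that this rule names are not reported here. Surroundings went to the list with the highest mean ratio over 2 rings, each ratio capped at 5. The tests were first run on simulated data. numpy 2.4.6, pandas 2.3.3, scipy 1.17.1 and matplotlib 3.10.9 were used. Replicate numbers were not taken as pairs in the main fits. Deviations from the condition means correlated at -0.066 between same-numbered sections over 7507 genes. With 2 sections per condition this is 1 correlation, which cannot exclude a shared slide or run.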

Additional observations from a re-analysis of the deposited data

Results flagged for a closer look

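The difference between the training effects in upper-layer spots and in layer 5 and layer 6 spots passed the test of that difference for 3 genes, among them Mobp (-0.82 on the log2 scale) and Hap1 (1.24). For both 3 of 10 alternatives kept the call, and the values ran from -1.05 to -0.41 for Mobp and from 0.49 to 1.79 for Hap1. Mobp is a myelin gene, and trained 2 had the highest sum of white matter markers in all 3 kinds of spot. Without either untrained section 0 genes were called, and without trained 1 the number was 16.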

How the results depend on the processing

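Trained against untrained members, edgeR called 0 genes, and the same number with thinned sums, the top 3% of spots, members touching 2 or more others, spots of at least 1000 UMIs and members with cortex around them. It called 11 without the filter on low counts, 2 without mitochondrial genes, Bc1, Ttr and Gm42418, 5 with library totals (which moved the median of all genes to 0.11), 1 with the replicate block (Oxt) and 4 with the top 12% of spots. In untrained 1 that last setting fell short of 12%, since only 177 kept spots held at least 2 UMIs of the rule genes. DESeq2 and limma with voom each called 1, and the rank-sum test, which takes spots for replicates, 288. Leaving out a section gave 0 to 69. For the difference from deep layers (3 genes) DESeq2 gave 0, limma with voom 15, no filter 11, no section term 0, the replicate block in place of the section term 0, the top 3% of spots 0, and leaving out a section 0 to 16. Members touching 2 or more others could not be compared there, since untrained 1 had 0 such layer 5 spots. List genes called (0) became 1 without the filter and 1 with library totals, and 0 to 22 without a section. The Gt(ROSA)26Sor difference became -0.045 points at 2 or more UMIs and ran from -13.5 to 26.6 without a section. The cause of these changes was not tested. Of 244 alternative values for the 19 genes named by their small p, 0 were opposite in direction. These genes had been picked from the same sections, so reversals could hardly occur, and the count is no measure of robustness. With 2 sections per condition, 1 section per mouse and 299262 to 652659 member UMIs, the number of sections and the depth limit the precision.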
